A study of Mus musculus with 14 samples.

Results

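TRIM71 is an RNA-binding protein of the TRIM-NHL family that is highly expressed in embryonic stem cells (ESCs) and early embryos and is kept low in differentiated cells by the let-7 microRNA. Its NHL domain contacts RNA, and mRNAs that it binds are known from earlier work to be repressed at the level of translation or stability. RNA immunoprecipitation followed by sequencing (RIP-seq) asks which transcripts are recovered with a protein: cells are crosslinked with UV light, the tagged protein is pulled down with an antibody, and the RNA that comes with it is compared with the RNA of the lysate.

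The transcripts described here are those of the FLAG-Trim71 pulldown table with an input level above 2 FPKM (fragments scaled to transcript length and library size), which held for 9651 of the 14054 transcripts listed. They are called members below. The cells were mouse ESCs of C57BL/6(F) x 129/sv(M) background that overexpressed 3XFLAG-Trim71 and grew in 2i+LIF, that is, N2B27 with 1.0 µM of the MEK inhibitor PD0325901, 3.0 µM of the GSK3 inhibitor CHIR99021 and 1000 units per ml of leukemia inhibitory factor (LIF). The input was 1/40 of the lysate, and its labels name no genotype and no antibody. Control cells with an empty 3XFLAG vector were pulled down in the study as well, but that group was not analysed here, so RNA that sticks to beads or antibody without TRIM71 is not subtracted from any value.

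The ratio of the scaled immunoprecipitate (IP) value to the scaled input value was computed anew for each member. The labels list 2 input and 2 IP samples, but the table holds 1 value per transcript for each group, so the ratios have no replicate error and no test is given for them. The IP values had been multiplied by 2.25 before deposit, whereas equal averages over all listed transcripts would need a factor of 3.31. The input RNA was poly(A)-selected and the IP RNA was not, so the ratio compares library preparations as well as pulldown with lysate, and the part of each cannot be told apart.

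The input had the markers of ESCs. The table lists 9 of the 10 ESC markers and all 9 were members, from 27.5 FPKM upwards, with a summed level of 5434.6 FPKM. None of the 6 fibroblast markers was a member, and the 2 listed ones summed to 0.6 FPKM. Of the markers of neural progenitors, primitive endoderm and trophoblast, 1 of 5, 2 of 5 and 1 of 4 were members. Their listed markers summed to 5.8, 503.8 and 17 FPKM, and the highest primitive endoderm marker alone stood at 499.9 FPKM. Trim71 itself stood at 133.4 FPKM in the input and at 31.8 and 34.02 FPKM in the wild-type RNA-seq libraries in 2i+LIF, a table that was normalized separately.

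Gm2694, a long intergenic noncoding RNA (lincRNA) that the study renamed Trincr1, was the lincRNA with the highest ratio. It lies on the forward strand of chromosome 8 (mm9), and the annotated transcript Gm2694-201 has 4 exons. The first 3 are shown to give the identity of this transcript.
Gm2694 exon 1, chr8:89996711-89996859: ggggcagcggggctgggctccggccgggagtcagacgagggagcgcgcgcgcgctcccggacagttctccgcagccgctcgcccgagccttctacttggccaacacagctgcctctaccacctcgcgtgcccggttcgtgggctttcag
Gm2694 exon 2, chr8:90045635-90045712: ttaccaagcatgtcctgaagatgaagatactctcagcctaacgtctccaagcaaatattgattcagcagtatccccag
Gm2694 exon 3, chr8:90048195-90048326: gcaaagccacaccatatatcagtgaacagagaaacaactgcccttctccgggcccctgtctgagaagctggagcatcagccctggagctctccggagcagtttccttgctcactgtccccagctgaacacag
Its input level was 2.6 FPKM, close to the lower limit of 2 FPKM, and its scaled IP level was 181.1 FPKM, a ratio of 69.7 that ranked 6 among the members.

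Pulldown ratios covered a wide range and most were low. Of the 9651 members, 492 (5.1%) had a ratio above 3, the study's cutoff, and are called enriched. A further 1054 members had a ratio from 1 to 3, 3672 were detected below 1, and 4433 (45.9%) were listed at 0 in the IP. The median ratio was 0.0571 and the 75th percentile 0.563. Without the authors' scaling 156 members passed a ratio of 3, and with the median ratio of abundant transcripts set to 1 the number was 1914. Just above the cutoff lay Mier2 at 3.01, and at the cutoff lay Tnrc18 and Tgfbr1 at 3.00.

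**Figure D1:**
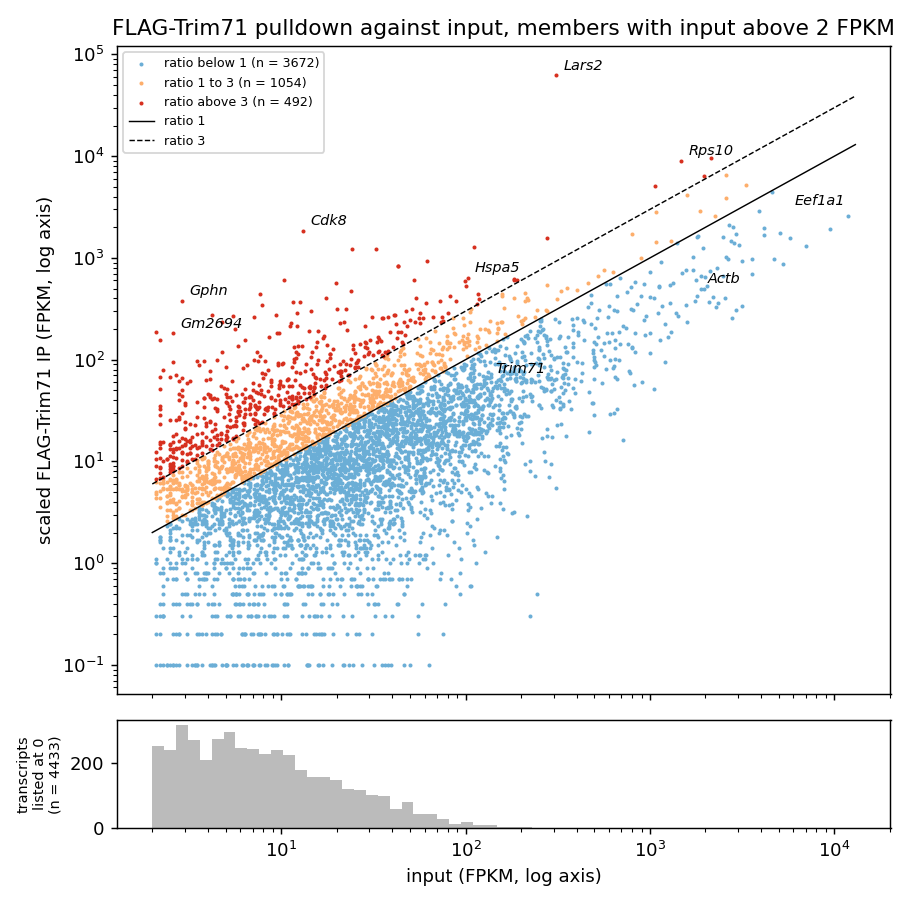
Scaled IP level against input level in FPKM for the members, 1 point per transcript, on log axes, with lines at a ratio of 1 and of 3. The lower panel counts the 4433 members listed at 0 in the IP by their input level; Lars2 stands far above the rest, and Trim71, Actb and Eef1a1 lie below a ratio of 1.

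The IP was concentrated on few transcripts. Enriched members made up 39.4% of the summed IP FPKM and 2.72% of the summed input FPKM. Lars2, the leucyl-tRNA synthetase of mitochondria, alone made up 16.8% of the IP sum, with 310.3 FPKM in the input and 62224 scaled FPKM in the IP, a ratio of 200.5. Whether reads counted for Lars2, or for Cdk8 and Gphn below, come in part from other RNAs of like sequence, such as ribosomal RNA, which poly(A) selection would remove from the input only, was not tested. The 10 highest transcripts held 31.4% of the IP sum and 11.4% of the input sum. With Lars2 left out and both columns brought to the same average, 933 members passed a ratio of 3.

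The next highest ratios were those of genes of unrelated function and of a copy of a ribosomal protein gene, with the same reservation for Cdk8 and Gphn. Cdk8, a kinase of the Mediator complex, had 13.1 FPKM in the input and 1844.2 scaled FPKM in the IP, a ratio of 140.8. Gphn, which encodes the synaptic scaffold and molybdenum cofactor enzyme gephyrin, had 2.9 and 378.8 FPKM, a ratio of 130.6. Rpl13-ps3, a copy of the ribosomal protein gene Rpl13, had 2.1 and 186.4 FPKM, a ratio of 88.8, with the uncertainty of copies given below. Gfra4, a co-receptor of the GDNF family, had 2.2 and 155.5 FPKM, a ratio of 70.7. Among the 6 highest ratios, Cdk8 and Lars2 had input levels above 10 FPKM and the other members lay between 2.1 and 2.9 FPKM.

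Abundance in the input was tied to the pulldown class. Between 2 and 5 FPKM, 71.7% of 2291 members were listed at 0 and 7.11% were enriched. Between 20 and 50 FPKM, 31.8% of 1939 members were listed at 0 and 3.87% were enriched. Above 500 FPKM, none of 152 members was listed at 0 and 4 (2.63%) were enriched. From 50 FPKM upwards the median ratio of each class lay between 0.236 and 0.296, so the usual ratio of an abundant transcript was well below 1, at 0.260 over the 1618 members of at least 50 FPKM.

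**Figure D2:**
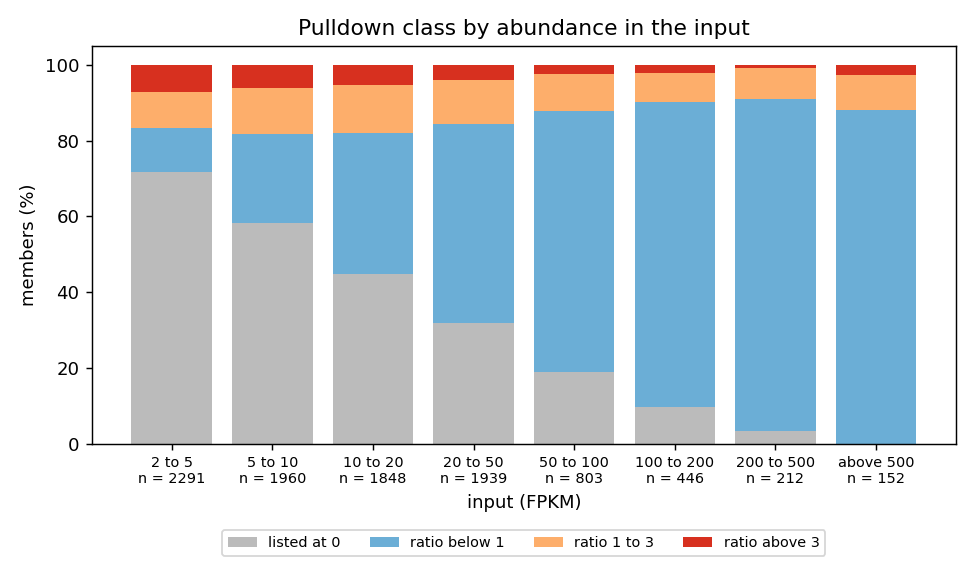
Share of members in each pulldown class (%) by input level in FPKM, with the number of members under each bar. The share listed at 0 goes from 71.7% in the lowest class to 0 above 500 FPKM, and the enriched share from 7.11% to 2.63%.

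The most abundant mRNAs sat near that usual ratio. Eef1a1, the elongation factor that brings tRNA to the ribosome, was highest in the input at 11914 FPKM and had a ratio of 0.217. Gapdh, a glycolysis enzyme, had a ratio of 0.165 and Ftl1, the ferritin light chain, 0.208. Of the 10 members with the highest input, Rps15 had the highest ratio, at 0.962. Actb (beta-actin) and Pou5f1 (the pluripotency factor Oct4) had ratios of 0.265 and 0.292. The mRNA of Trim71 itself had a ratio of 0.491.

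Enriched members of high input were few. At 200 FPKM or more they were 6, named here after their values were seen: Lars2, the ribosomal protein mRNAs Rps10, Rpl27, Rpl12 and Rps19, and the pseudogene Gm10275. Rps10 had 1482.9 FPKM in the input and 9029.3 scaled FPKM in the IP, a ratio of 6.09. Rpl12 had 2156.3 and 9548.4 FPKM, a ratio of 4.43.

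Whole fragments could be traced in the IP values. For transcripts of genes with 1 annotated isoform, low IP values times the length less 220 bases fell on steps. Of 204 low values, 82.8% lay within 0.2 of a whole number of fragments. Evenly spread values would give 40.0% for a step fixed beforehand. The 220 bases and the step were those that best placed these same values on whole numbers. That choice raises the share by an amount that was not measured. The step corresponds to about 1460000 fragments behind the IP column. This estimate takes each gene's longest isoform, with a fixed minimum length for transcripts too short for the subtraction. By it, the enriched members rested on a median of 89.6 fragments, and 473 of 492 on at least 10. The depth of the input is unknown. Fragments without molecular identifiers may be copies of the same molecule, so these numbers cover counting error only.

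Abundant transcripts were among those listed at 0. Of the 10 members with the highest input at 0, some were Atp5e at 308.6 FPKM, Ndufb9 at 232.0 FPKM and Ndufa4 at 211.2 FPKM, subunits of the respiratory chain, and Lsm3 at 278.9 FPKM, part of a ring of proteins that binds U6 RNA and decapped mRNA. Whether a 0 is a true absence from the IP or a failed estimate was not tested, and such transcripts are only said to be listed at 0. For Lsm3, 3 fragments would give a ratio of 0.0403. Over the 1101 single-isoform members at 0 whose length allowed the estimate, 3 fragments would give a median ratio of 0.417, and for 363 of them (33.0%) less than the usual ratio of 0.260. For 995 of them it would lie below 3.

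By biotype, protein-coding members were 9192, of which 447 (4.86%) were enriched and 4129 (44.9%) were listed at 0. The 77 processed transcripts, mostly noncoding, were nearly all listed at 0 in the IP: 72 (93.5%) had that value and 2 were enriched, Snhg9 and Gm13205, on an estimated 0.943 and 2.00 fragments. All 6 processed transcripts with input above 50 FPKM were listed at 0, whereas 12.1% of the 1573 protein-coding members in that range were.

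Of the 63 lincRNA members, 45 (71.4%) were listed at 0 and 5 (7.94%) were enriched. After Gm2694, these were 5430416N02Rik with 22.4 FPKM in the input and 313.9 scaled FPKM in the IP, a ratio of 14.0, and 9930104L06Rik with 4.9 and 52.1 FPKM, a ratio of 10.6. Gm17586 and Bbip1 followed with ratios of 6.74 and 4.04, at inputs of 2.3 and 2.7 FPKM. With an input minimum of 5 FPKM only 5430416N02Rik of these 5 was left. The 3 members among long noncoding RNAs known to stay in the nucleus, Malat1 at 25.3 FPKM, Meg3 at 16.7 FPKM and Neat1, were all listed at 0.

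Pseudogenes had the largest enriched share of the biotypes. Of 319 pseudogene members, 38 (11.9%) were enriched and 187 (58.6%) were listed at 0. The share was 10.2% at inputs up to 10 FPKM, 15.3% from 10 to 50 FPKM and 13.8% above 50 FPKM, beside 6.52%, 4.32% and 1.97% of protein-coding members. The highest were Gm11425 with 5.5 FPKM in the input and 271.4 scaled FPKM in the IP, a ratio of 49.3, and Gm12341 with 5.6 and 199.1 FPKM, a ratio of 35.6.

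Many of these are copies of ribosomal protein genes. Their values are uncertain because reads cannot always be assigned to a copy or to the gene it came from. Some named copies, among them Rps19-ps1, Rps19-ps2 and Rpl13-ps3, are annotated as protein-coding and were counted with the protein-coding members. The sequences below show how close copies can be: the first 90 coding bases of Rps10 and Rps19 and the same stretch in copies that were enriched, on mm9, with bases that differ from the gene in capitals.
Rps10, chr17:27771331-27771420, reverse strand: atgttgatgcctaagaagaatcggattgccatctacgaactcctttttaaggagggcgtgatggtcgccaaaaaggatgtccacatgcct
Rps10-ps1, chr3:95426200-95426289, forward strand: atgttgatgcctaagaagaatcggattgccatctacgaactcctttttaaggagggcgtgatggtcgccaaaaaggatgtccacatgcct
Rps19, chr7:25670155-25670489, forward strand, spliced: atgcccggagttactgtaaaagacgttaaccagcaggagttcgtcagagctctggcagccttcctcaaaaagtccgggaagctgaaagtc
Rps19-ps1, chr14:53833405-53833494, forward strand: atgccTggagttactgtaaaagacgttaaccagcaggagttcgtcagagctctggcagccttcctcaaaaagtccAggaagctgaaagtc
Rps19-ps7, chr2:139899116-139899205, reverse strand: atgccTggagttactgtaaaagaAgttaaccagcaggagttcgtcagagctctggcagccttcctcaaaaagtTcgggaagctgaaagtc
Rps10-ps1 was identical to Rps10 over the stretch. Over all 498 coding bases of Rps10, its annotated exons had 53 differences, inserted or missing bases included (89.4% identity). Those exons hold only 465 bases, so part of the differences are bases absent from the annotation of the copy. Over the stretch, Rps19-ps1 differed by C6T and G76A, counted from the first coding base. Rps19-ps2 had the same stretch as Rps19-ps1, and both had the same scaled IP value of 830.3 FPKM.

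Rps10-ps1 had 12.2 FPKM in the input and 287.6 scaled FPKM in the IP, a ratio of 23.6 beside 6.09 for Rps10. In all, 74 members are named as copies of another member, 48 genes being copied. Of these copies 15 were enriched, 6 of them copies of an enriched gene and 9 of a gene at or below 3, and 38 had a higher ratio than the copied gene. Rpl13-ps3 had the largest gap, with a ratio of 88.8 beside 0.484 for Rpl13. Identity over the coding sequence of the copied gene could be computed for 64 copies, from their annotated exons. Its median was 97.7% in the 12 enriched ones and 99.2% in the others. Copies annotated as much shorter than that sequence were left out, among them the enriched Rps19-ps1, Rps19-ps2 and Rps19-ps7. The medians therefore do not cover all enriched copies.

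The length of the coding sequence moved with the pulldown class. With protein-coding members in 5 equal classes of coding length, from the shortest to the longest, the share of members listed at 0 went from 51.2% to 32.6% and the enriched share from 3.89% to 7.36%. At inputs from 10 to 50 FPKM the share at 0 went from 54.0% to 17.5%, and above 50 FPKM from 18.9% to 2.10%. The enriched share went up in each step of coding length only at inputs up to 10 FPKM, from 4.83% to 8.46%. Longer transcripts give more fragments at the same FPKM, and the part of this in the share at 0 was not tested.

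**Figure D3:**
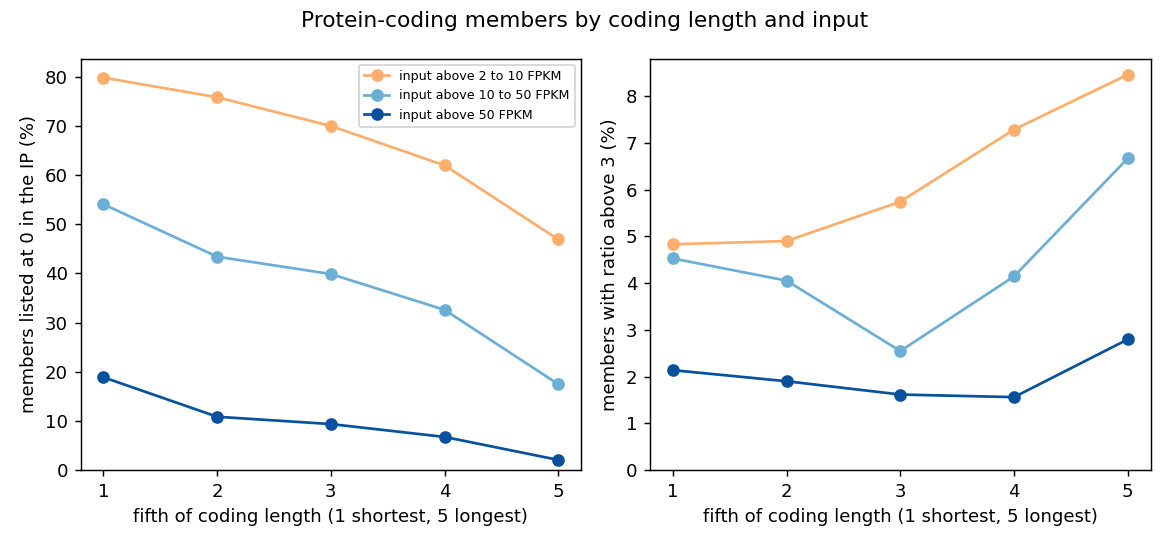
Share of protein-coding members listed at 0 in the IP (left, %) and with a ratio above 3 (right, %) by class of coding length (1 shortest, 5 longest), for 3 ranges of input in FPKM. At each input range the share at 0 is lowest in the longest class, at 46.9%, 17.5% and 2.10%.

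GC content moved the same way, with a smaller change in the share at 0 and a like change in the enriched share. In the lowest of 5 equal classes of GC content, up to 45.5%, 55.1% of members were listed at 0 and 3.21% were enriched. In the highest class, from 56.6%, 42.1% were listed at 0 and 6.37% were enriched. The length of the 3' untranslated region, where many RNA-binding proteins contact mRNAs, showed little over all inputs: 45.3% of members in the shortest class and 44.3% in the longest were listed at 0, and 5.87% and 5.50% were enriched. Within input ranges the classes differed more: from the shortest to the longest class the share at 0 went from 69.3% to 57.3% up to 10 FPKM and from 46.4% to 29.2% between 10 and 50 FPKM, and was 15.5% and 15.6% above 50 FPKM, where the enriched share went from 2.49% to 0. Across 9190 protein-coding members, Spearman's rho with the ratio was 0.140 for coding length, 0.112 for GC content and 0.0143 for the length of the 3' untranslated region, genes not being independent of each other.

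Function was described with 27 gene lists, 26 of which had members. Their counts are read against 5.1% enriched and 45.9% at 0 among all members, and their median ratios against 0.0571, with the reservation that lists of abundant genes hold fewer zeros. The lists were set by symbol, and a few symbols belong elsewhere, such as Hspg2 among the chaperones.

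**Figure D4:**
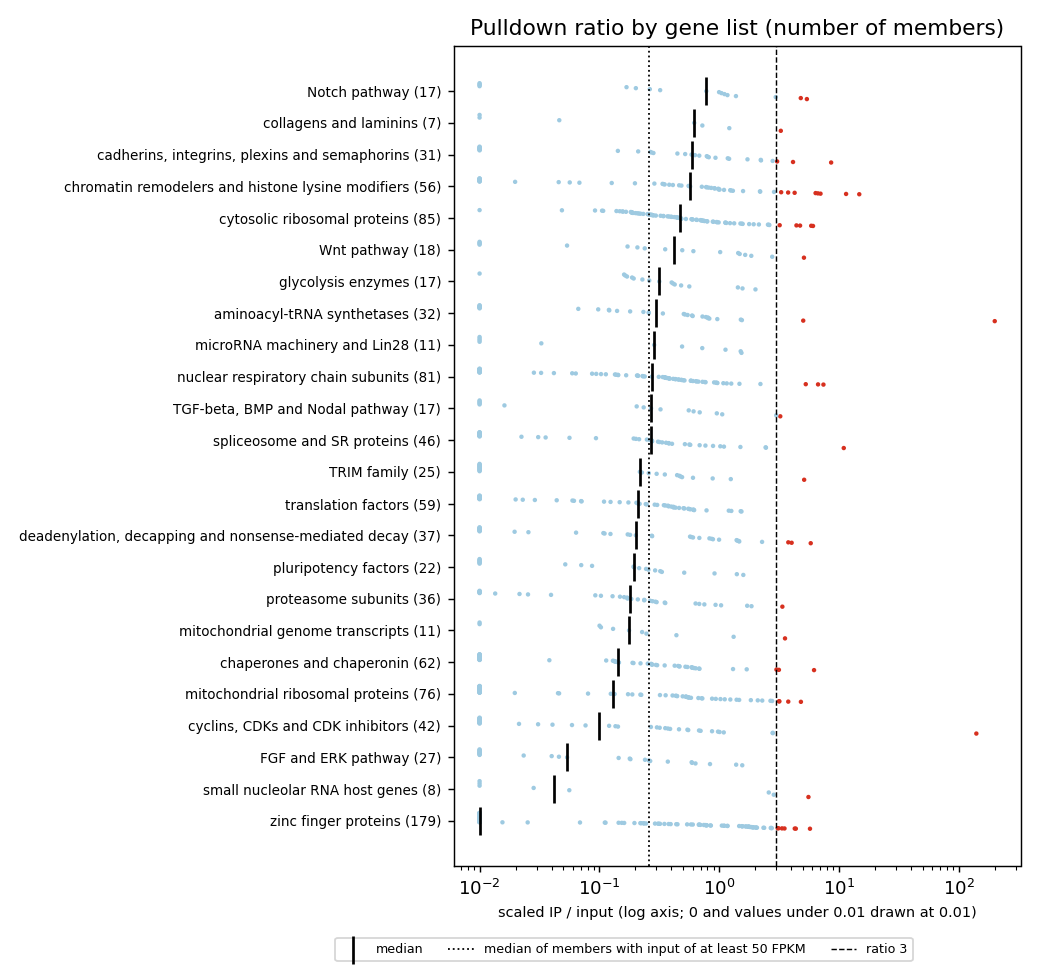
Ratio of scaled IP to input for each member of the gene lists with at least 5 members, on a log axis, with the number of members in brackets and black bars at list medians. Values of 0 and under 0.01 are drawn at 0.01, and red points have a ratio above 3; the Notch list has the highest median, at 0.782, and the zinc finger list has a median of 0.

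The machinery of protein synthesis was mostly recovered below a ratio of 1. Of 85 mRNAs for cytosolic ribosomal proteins, 1 (Rpl39l) was listed at 0, 65 were below 1 and 5 (5.88%) were enriched. Their median ratio was 0.475 and their median input 1701.6 FPKM. Among all members of at least 50 FPKM, 2.16% were enriched and the median ratio was 0.260, so this list lay above abundant transcripts in general. Ribosomal protein mRNAs made up 32.3% of the IP sum and 30.1% of the input sum. Their ratios ran from 0.0487 for Rpl39 to 6.09 for Rps10 among those detected, so mRNAs made for the same particle differed widely. None of 59 mRNAs for translation factors was enriched and 14 were at 0, with a median ratio of 0.211. The highest there were Eif2c1 (1.54) and Eif2c2 (1.52), which encode Argonaute proteins and not initiation factors.

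Genes of mitochondria were split. Among 76 mRNAs for mitochondrial ribosomal proteins, 4 were enriched and 31 were at 0, with Mrpl41 at 4.82 and Mrps16 at 0 despite 172.3 FPKM in the input. Among 81 nuclear-encoded subunits of the respiratory chain, 3 were enriched and 20 were at 0. Atp5k had a ratio of 7.44 and Ndufs5 6.71, beside Atp5e and Ndufb9 at 0. Of 11 transcripts of the mitochondrial genome, which are made outside the nucleus and cytosol, mt-Co2 had a ratio of 3.55 and mt-Nd6 1.32, 2 were at 0 and the median was 0.177. Of 32 aminoacyl-tRNA synthetases, which charge tRNAs with amino acids, the 2 enriched ones, Lars2 and Vars2 (5.04), are both mitochondrial.

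In other housekeeping groups, the enriched share was not above the 5.1% of all members. Among all members of at least 50 FPKM, 2.16% were enriched. Glycolysis enzymes had 0 of 17 and proteasome subunits 1 of 36 (Psma6, 3.38), or 2.78%. Their median ratios were 0.317 and 0.179, and their median inputs 280.9 and 140.15 FPKM. Chaperones, at a median input of 28.6 FPKM, had 3 of 62 (4.84%), beside 3.87% of all members between 20 and 50 FPKM. Hspa5, the chaperone BiP of the endoplasmic reticulum, led with 102.9 FPKM in the input and 639.0 scaled FPKM in the IP, a ratio of 6.21. Splicing factors, at a median input of 45.85 FPKM, had 1 of 46 (2.17%), beside 3.87% in that same range. It was Snrpf, a core protein of the spliceosome, with a ratio of 11. No replication-dependent histone mRNA was listed at any input level, so their recovery could not be described.

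RNA decay and the microRNA pathway are where TRIM71 has been placed by earlier work. Of 37 members for deadenylation, decapping and nonsense-mediated decay, 3 were enriched: Cnot7 (5.83), a deadenylase, Edc3 (4.04), an activator of decapping, and Lsm10 (3.79), a protein of histone mRNA processing. Another 10 were at 0. None of 11 members of the microRNA list was enriched; Xpo5, which exports microRNA precursors, and Lin28a, which blocks let-7 processing, were at 0. Of 7 mRNAs known from earlier work as TRIM71 targets, 4 were members. Plxnb2, a semaphorin receptor, had a ratio of 4.15, Rbl1, a relative of the retinoblastoma protein, 0.980, the cell cycle inhibitor Cdkn1a 0.701, and Rbl2 was at 0.

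The lists of pluripotency factors and of the FGF and ERK pathway, the pathway the study followed, held no enriched member, beside 5.1% of all members. Lists of 22 and 27 members can hold none at such a share. The FGF and ERK list is not complete: Dusp7, a phosphatase of ERK, is not in it and was enriched. Of 22 pluripotency factors, 7 were at 0, among them Sox2 with 36.3 FPKM in the input, and Stat3 was highest at 1.59. Of 27 members of the FGF and ERK list, 10 were at 0, among them Hras1 and Mapk3 with 69.7 and 57.3 FPKM in the input. Map2k1, which encodes the kinase MEK1, was highest at 1.56. Shcbp1, an adaptor of this pathway that the study tied to TRIM71, was listed at 0 with 6.1 FPKM in the input, where 3 fragments would give a ratio of 0.396. Cyclins, CDKs and CDK inhibitors had 1 enriched member of 42, Cdk8.

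Chromatin and cell surface genes are given beside 8.46%, the enriched share of all protein-coding members in the longest class of coding length at inputs up to 10 FPKM, as their median transcript lengths were 5712.5 and 4552 bases and their median inputs 9.9 and 15.8 FPKM. Of 56 chromatin remodelers and histone lysine modifiers, 8 (14.3%) were enriched and 12 (21.4%) were at 0, with a median ratio of 0.569. Kdm1b, a histone demethylase, had 2.2 FPKM in the input and 32.6 scaled FPKM in the IP, a ratio of 14.8, and Setdb2, a methyltransferase, 4.0 and 46.0 FPKM, a ratio of 11.5. In the same list, Kdm2b and Setd3 were at 0 with inputs of 32.7 and 31.1 FPKM. Of 31 cadherins, integrins, plexins, semaphorins and Eph receptors, 3 (9.68%) were enriched and the median was 0.589. Epha2, an Eph receptor, led with 22.8 and 196.7 FPKM, a ratio of 8.63, while Itgb5 and Itga3 were at 0. Among 7 collagens and laminins, Lama5 was enriched at 3.28.

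Other signaling lists were mixed. In the Notch list, 2 of 17 were enriched, the glycosyltransferase Rfng (5.41) and the ligand Dll1 (4.81), and the median was 0.782, while the target Hes1 was at 0. In the Wnt list, Dvl3, which relays the signal from the receptor, was enriched at 5.12, and Ctnnb1 (beta-catenin) had 2.78, whereas the transcription factors Tcf7l1 and Tcf7 were at 0. In the TGF-beta, BMP and Nodal list, the receptor Acvr2b had 3.24 and Smad2 was at 0. Of 25 TRIM family members, Trim45 alone was enriched, at 5.14.

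Most zinc finger proteins were listed at 0 in the IP. Of 179 members, 106 (59.2%) were at 0 and 7 (3.91%) were enriched, with Zbtb38 highest at 5.74. Their median input was 5.4 FPKM, and between 5 and 10 FPKM 58.3% of all members were at 0, a like share. Of 8 host genes of small nucleolar RNAs, 3 were at 0, and the RNA of Snhg9 was the enriched one.

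The pulldown can be set beside an independent measurement, RNA-seq of wild-type and Trincr1 knockout (Trincr1-ko) ESCs, to ask whether enriched transcripts change when the lincRNA Gm2694 is lost. The knockout deleted exons 2 to 4 of the lincRNA, and the cells grew in 2i+LIF (2iL) or in 2iL for 24 hours and then for 4 days without CHIR99021 (PDL), with 2 samples for each genotype and medium. The labels do not say whether these were separate cultures, so p-values measure the spread between the samples only. Differences are on the log2(FPKM + 1) scale, from limma with Benjamini-Hochberg adjustment over 15430 genes.

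The targeted gene was low in the cells labelled knockout. Gm2694 had 5.71 and 9.45 FPKM in WT in 2iL and 0.0754 and 0 FPKM in Trincr1-ko, and 6.18 and 6.56 FPKM in WT in PDL and 1.38 and 0.746 FPKM in Trincr1-ko. The groups did not overlap in either medium. The difference was -3.01 ± 0.232 (SE, limma adjusted p = 0.00317) in 2iL and -1.85 ± 0.232 (SE, limma adjusted p = 0.00535) in PDL.

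Enriched members were called at shares near those of all genes. In 2iL, 0.35% of all genes tested were higher in Trincr1-ko and 0.855% were lower, and of the 481 enriched members tested 4 were higher and 3 lower, or 2 lower with the deleted Gm2694 left out. In PDL, 6.29% of all genes were higher and 5.77% lower, and of the enriched members 28 (5.82%) were higher and 33 (6.86%) lower, or 32 lower with Gm2694 left out. Of the 4323 tested members listed at 0, 13 were higher and 46 lower in 2iL, and 247 (5.71%) were higher and 267 (6.18%) lower in PDL. Members detected below a ratio of 1, which are more abundant, were called most often in PDL, with 9.44% higher and 9.49% lower. The median difference of the enriched members was 0.02 in 2iL and 0.01 in PDL, beside 0.00 and 0.01 over all genes.

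These counts depend on single libraries. Leaving out any of the 4 libraries of the medium gave 1 to 2 calls among enriched members in 2iL, and 9 to 31 in PDL (13 and 22 without WT replicate 1 and 2, 9 and 31 without Trincr1-ko replicate 1 and 2). A fit of the 4 samples of the medium alone gave 0 and 10 calls, with 69 (14.3%) and 125 (26.0%) enriched members at an unadjusted p under 0.05. Over all genes that fit gave 0 and 316 calls, with 2106 (13.6%) and 4138 (26.8%) of 15430 genes at an unadjusted p under 0.05.

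Beside Gm2694, Rasgrp2 was lower in both media. Rasgrp2, an activator of the small GTPase Rap1, had a pulldown ratio of 3.29. It had 68.1 and 68.4 FPKM in WT and 43.5 and 49.2 FPKM in Trincr1-ko in 2iL, and 70.0 and 77.1 against 39.0 and 37.0 FPKM in PDL. Its differences were -0.55 ± 0.0735 (SE, limma adjusted p = 0.0201) in 2iL and -0.93 ± 0.0735 (SE, limma adjusted p = 0.00188) in PDL. Chd3, a chromatin remodeler with a ratio of 4.28, was higher in both media. It had 13.1 and 14.4 FPKM in WT and 28.4 and 34.5 FPKM in Trincr1-ko in 2iL, a difference of 1.13 ± 0.117 (SE, limma adjusted p = 0.00872), and 10.3 and 8.56 against 14.8 and 14.6 FPKM in PDL, a difference of 0.59 ± 0.117 (SE, limma adjusted p = 0.0228).

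Further genes are from the enriched members that passed the test and whose groups did not overlap, a condition of the choice. In PDL the largest fall among these after Gm2694 was that of Kit, a receptor tyrosine kinase of germ and stem cells with a pulldown ratio of 7.61. It had 18.8 and 14.9 FPKM in WT and 6.06 and 5.90 FPKM in Trincr1-ko, a difference of -1.35 ± 0.106 (SE, limma adjusted p = 0.00188). Cbs, an enzyme of cysteine synthesis with a ratio of 9.62, had 8.56 and 11.5 against 3.15 and 5.48 FPKM, a difference of -1.08 ± 0.235 (SE, limma adjusted p = 0.0294). Nup210, a nuclear pore protein with a ratio of 5.25, had 22.02 and 17.9 against 9.93 and 8.95 FPKM, a difference of -0.998 ± 0.110 (SE, limma adjusted p = 0.00370). Among the rises, Vim (vimentin, an intermediate filament), with a ratio of 6.07, had 72.4 and 95.8 against 150.3 and 131.6 FPKM, a difference of 0.75 ± 0.122 (SE, limma adjusted p = 0.0122). Cxadr, an adhesion protein with a ratio of 6.12, had 5.51 and 5.70 against 11.4 and 11.2 FPKM, a difference of 0.90 ± 0.0882 (SE, limma adjusted p = 0.00280).

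**Figure D5:**
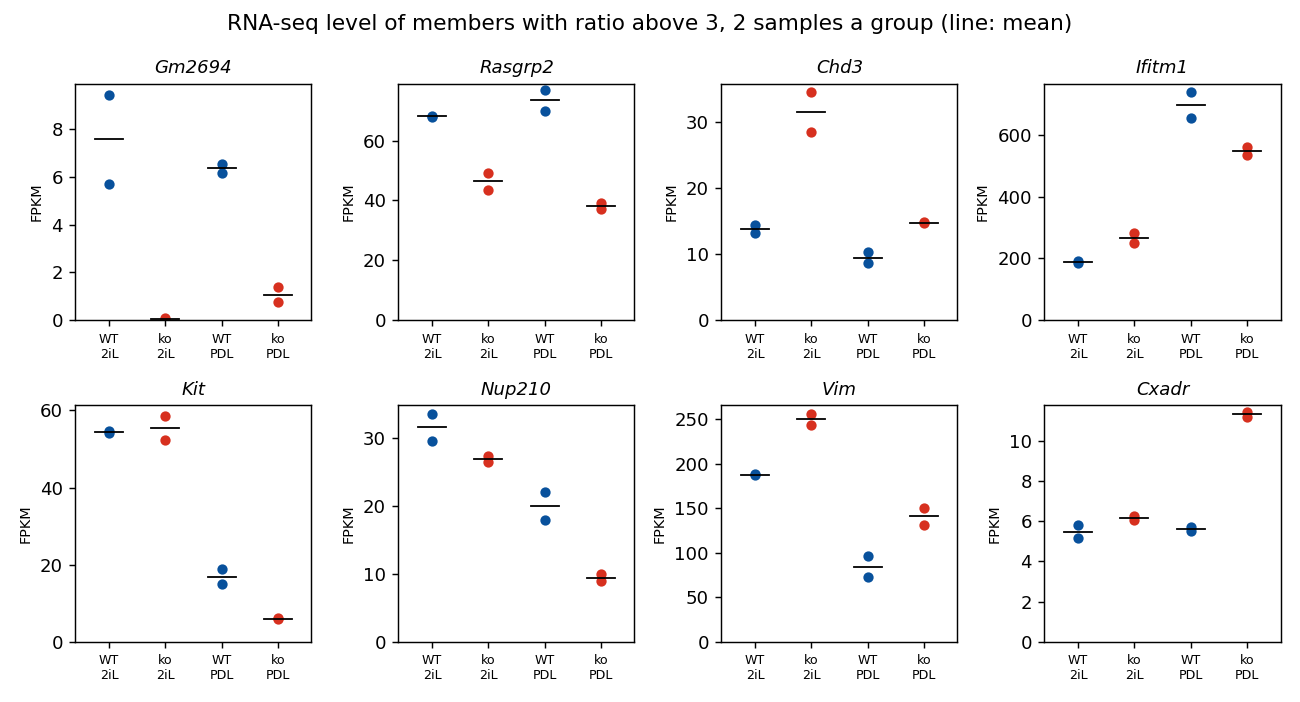
RNA-seq level in FPKM of 8 enriched members in WT (blue) and Trincr1-ko (red, ko) ESCs in 2iL and PDL, 1 point per sample and a line at the mean of the 2 samples. Gm2694 and Rasgrp2 are lower in Trincr1-ko in both media and Chd3 is higher in both, while Kit differs in PDL, with 6.06 and 5.90 FPKM in Trincr1-ko.

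Lars2 and Trim71 were also measured in the knockout. Lars2 had 85.2 and 77.9 FPKM in WT and 74.4 and 88.3 FPKM in Trincr1-ko in 2iL, where the groups overlapped, and 70.3 and 73.8 against 75.3 and 112.1 FPKM in PDL, where they did not, a difference of 0.35 ± 0.171 (SE, limma adjusted p = 0.234). Trim71 had 34.02 and 31.8 FPKM in WT and 34.7 and 33.6 FPKM in Trincr1-ko in 2iL, which overlapped, and 30.8 and 31.5 against 37.3 and 37.7 FPKM in PDL, a difference of 0.26 ± 0.0536 (SE, limma adjusted p = 0.0259).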

How the data were processed

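RIP-seq of FLAG-Trim71 IP and input, and RNA-seq of 8 ESC samples, were used as deposited by the authors. The authors aligned reads to mm9 with STAR 2.5.0 and computed FPKM with Cufflinks 2.2.1 (versions per the submitters' processing notes), leaving out reads on transcripts without a poly(A) tail. The deposited FPKM of the pulldown table are 1 pooled value per group with 1 decimal, and both groups also have a deposited scaled signal (for the IP the FPKM times a constant); the RNA-seq table holds FPKM per sample. The authors' own enrichment column was not used. All 14054 identifiers were found in GENCODE vM1; 9491 members were joined to RNA-seq by identifier, 60 by symbol and 100 had no entry.

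Ratios were scaled IP over scaled input, enriched meaning above 3 at input above 2 FPKM. RNA-seq was tested with limma 3.58.1 (R 4.3.3) on log2(FPKM + 1), 4 groups in 1 fit, mean above 0.2 FPKM, variance trend, Benjamini-Hochberg threshold 0.05; on simulated data for the PDL comparison (15430 genes), 185 of 200 changed genes were recovered with 11 false calls. Named genes are, per list, the 2 highest and 2 lowest ratios; the 10 highest inputs, overall and at 0; the 5 highest ratios per biotype; genes the study names; and the 5 largest rises and falls among enriched members whose samples do not overlap. Others named were chosen after their values were seen. Members and lists were chosen with earlier results of these data known. IP fragments were estimated from steps in low values. Genome sequences are NCBIM37. Alternatives were scaling, pseudocount, input minimum, fold, denominator, filters, trend, block and left-out samples.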

Additional observations from a re-analysis of the deposited data

Results flagged for a closer look

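The effect of the knockout differed between the media, by the interaction term of the limma fit, in 4 enriched members taken by the rule for named genes. Kit was lower in Trincr1-ko in PDL and not in 2iL, where it had 54.2 and 54.7 FPKM in WT and 52.3 and 58.7 FPKM in Trincr1-ko; the difference between the effects (PDL minus 2iL) was -1.37 ± 0.150 on the log2 scale (SE, limma adjusted p = 0.0200). Ifitm1, an interferon-induced membrane protein with a ratio of 4.09, was higher in Trincr1-ko in 2iL (190.4 and 184.9 FPKM in WT, 249.7 and 283.3 FPKM in Trincr1-ko) and lower in PDL (738.6 and 655.7 against 535.4 and 559.5 FPKM), a difference between the effects of -0.85 ± 0.105 (SE, limma adjusted p = 0.0267). Cxadr had a difference between the effects of 0.75 ± 0.125 (SE, limma adjusted p = 0.0384). Gas2l1, a cytoskeleton linker with a ratio of 5.395, had 22.8 and 21.5 against 22.2 and 20.8 FPKM in 2iL and 12.6 and 10.95 against 22.3 and 21.7 FPKM in PDL, a difference between the effects of 0.89 ± 0.112 (SE, limma adjusted p = 0.0267). Over all enriched members 9 of 481 passed this term, beside 279 of 15430 genes.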

How the results depend on the processing

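The number of enriched members followed the scaling of the IP and the fold: from 492 it moved to 755 with equal averages, 156 with no scaling, 1073 with the mean without the 100 highest transcripts, 1914 with the median ratio of abundant transcripts set to 1 (then 1614 members were detected below 1), 765 and 249 at folds of 2 and 5, and, chosen after seeing the data, 933 without Lars2. In the same order of the first 4 scalings, protein-coding counts moved to 698, 133, 999 and 1821; pseudogene counts to 19, 64 and 80 in the last 3; and the lincRNA count to 9 in the last. With input above 5 FPKM, 2790 members were listed at 0 and 1 lincRNA was enriched. With wild-type RNA-seq as denominator 368 members passed, 257 of them shared with the 492; transcripts under 2 FPKM there were left out. Requiring the lower end of an exact 95% Poisson interval of the estimated fragments above 3, chosen after seeing the data, left 344.

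For the knockout, calls among enriched members in 2iL (7) moved to 2 with no filter, 4 with no variance trend, 0 with the 4 samples alone and 16 with the pulldown scaled without the 100 highest transcripts, and those in PDL (61) to 15 with no filter, 10 with the 4 samples alone and 139 with that scaling. Calls among members listed at 0 moved in 2iL (59) to 15 with no filter and 0 with the 4 samples alone, and in PDL (514) to 150 and 78. With 1 library left out, calls ranged from 1 to 2 and 9 to 31 among enriched members in 2iL and PDL, and from 6 to 18 and 81 to 184 among those at 0; the lone sample is then assumed to vary like the other groups. Same-numbered samples did not deviate together (correlations from -0.0539 to 0.00634), so they share only a number; with the replicate block, 5 and 44 enriched members and 31 and 349 members at 0 were called in 2iL and PDL. The cause of these moves was not tested, beyond what each construction sets.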

Other observations

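The input of the pulldown and the wild-type RNA-seq in 2iL are both poly(A)-selected ESC libraries, in tables normalized separately. Across 9551 members with values in both, Pearson's r of log2(FPKM + 1) was 0.820, genes not being independent, and the SD of the difference was 1.11 on the log2 scale. Single members differed more: Shcbp1 had 6.1 FPKM in the input and 29.5 and 32.8 FPKM in the RNA-seq samples, and Malat1 25.3 FPKM beside 79.4 and 70.7 FPKM. Members of the table with extreme ratios, chosen after their values were seen, also include Sufu, a repressor of Hedgehog signaling (ratio 64.9), Dusp7, a phosphatase of ERK (48.9), Vangl2, a planar cell polarity protein (43.2), and Mettl3, the methyltransferase of m6A in mRNA (23.1). Sufu, Dusp7 and Vangl2 had inputs of 10 FPKM or less, where a small denominator makes the ratio less certain.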
